A study of Homo sapiens with 6 samples.

Results

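The genes described here build, bind and regulate the actin cytoskeleton, together with the transcription factor SRF and its MRTF cofactors. They were chosen by symbol from a list of 55 genes, and 53 of these had a row among the 12306 gene rows of the table; CNN1, a smooth muscle calponin, and VIL1, the epithelial bundling protein villin, had none. Of the 53 rows, 48 passed a filter on low values and were tested. They were split into regulators (3 listed, 2 tested), actins (3 listed and tested) and actin-binding proteins (49 listed, 43 tested).

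Actin cycles between monomers (G-actin) and filaments (F-actin). The Arp2/3 complex and the formins start and extend filaments, cofilin severs them, capping proteins close their ends, and crosslinkers, tropomyosins and myosin II arrange and contract them. The same cycle feeds a transcriptional loop: MRTF cofactors bind G-actin in the cytoplasm, enter the nucleus when monomers are used up, and act with SRF at CArG boxes near genes that largely encode cytoskeletal proteins. Focal adhesion kinase (FAK) sits at the sites where actin bundles meet integrins.

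The cells were of 92.1, a human line established from a uveal melanoma, and were grown in RPMI-1640 with 10% FBS. One group of 3 libraries was treated with VS-4718, a small-molecule FAK inhibitor, at 1 µM for 2 h, and the other group of 3 libraries with the DMSO vehicle (0 µM) for the same 2 h. The design text calls the samples independent, and the labels do not name separate cultures, so the p-values measure the spread between these libraries, which may be technical. Values are log2 of a TPM-like abundance, a measure per transcript length scaled to a fixed library total, so that read depth is unknown. The linear values summed to between 836527 and 840714 per library, and the libraries' medians lay between 3.00 and 3.09 on the log2 scale. Although the labels name a human line and GRCh38, 2080 of the row names (16.9%) are of a mouse style (Riken clones, GM numbers, pseudogene suffixes). The sources used here do not give the transcript set behind the rows, so a level belongs to a row and changes are compared within rows. Of 12 melanocyte markers 10 had a row; PMEL and TYRP1 were high (12.13 to 12.31 and 11.09 to 11.27 log2 units over the 6 libraries), while MLANA, TYR, DCT and MC1R were too low to be tested. Of the fibroblast markers 5 of 8 had a row, of the epithelial ones 1 of 5, of the endothelial ones 2 of 4 and of the immune ones 1 of 4, and of these rows only PECAM1 was high enough to test. As in any bulk sample, fewer cells of a type and less RNA per cell cannot be told apart.

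Of the 55 genes, 48 had promoter windows in the RefSeq table for GRCh38.p14, each from 250 bases before to 50 after an annotated start, and several genes had more than 1 start. The other 7, ACTB, ARPC1B, PFN2, VIL1, FSCN1, TAGLN and MYL9, had no window and were not searched. The 48 genes with windows are thus not the same as the 48 tested genes. The CArG box, the 10-base element that SRF binds and that reads alike on both strands, was searched without mismatches. It was found at 8 of these 48 genes (16.7%), against 438 of all 27305 genes in the table (1.6%) and 103 of the 6078 tested rows with a window (1.69%). Per window the shares were 10.1% of 99 and 1.29% of 35116. The list was chosen for actin and SRF/MRTF genes, so this difference may come from the choice of genes, and its cause was not tested. The stretches are shown because they hold the letters that SRF recognises; a match is a description, not evidence of binding. Each is given 5′ to 3′ on the gene's strand with the CArG box in capitals.
SRF: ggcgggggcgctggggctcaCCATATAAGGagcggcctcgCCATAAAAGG
ACTG1: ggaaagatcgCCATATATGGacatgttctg
ACTN1: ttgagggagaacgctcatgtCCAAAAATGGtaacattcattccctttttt
FLNA: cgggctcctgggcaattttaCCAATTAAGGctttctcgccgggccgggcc
CNN2: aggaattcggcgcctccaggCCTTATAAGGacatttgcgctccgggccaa
TPM4: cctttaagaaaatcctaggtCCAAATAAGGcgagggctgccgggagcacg
FHL1: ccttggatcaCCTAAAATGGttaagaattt
FHL2: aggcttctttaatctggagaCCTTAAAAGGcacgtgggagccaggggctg

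The SRF stretch (chr6:43171219-43171268, plus strand) holds 2 boxes that begin 30 and 10 bases before the annotated start. The box in the CNN2 stretch (chr19:1026499-1026548, plus strand) begins 89 bases before the start. That in the FLNA stretch (chrX:154374699-154374748, minus strand) begins 94 bases before it, and that in the FHL2 stretch (chr2:105438585-105438634, minus strand) 85 bases. The box in the ACTG1 stretch (chr17:81512874-81512903, minus strand) begins 94 bases before a start inside the gene. The box in the ACTN1 stretch (chr14:68977708-68977757, minus strand) begins 171 bases before a start inside the gene, and that in the TPM4 stretch (chr19:16067345-16067394, plus strand) 173 bases before one. The box in the FHL1 stretch (chrX:136196911-136196940, plus strand) begins 126 bases before an internal start. In GENCODE 29 the ACTG1 and FHL1 stretches touch an untranslated exon of another transcript of the same gene. The ACTN1 and TPM4 stretches lie inside their genes and outside exons. That of FLNA touches an exon of AC245140.3 on the other strand, and those of SRF, CNN2 and FHL2 overlap no annotated gene. Of the genes described most closely, all protein-coding, SRF spans chr6:43171299-43181507, MKL1 chr22:40410281-40636702, ACTB chr7:5527147-5563784, ACTG1 chr17:81509971-81523847 and ACTA2 chr10:88935074-88991339. ARPC1B spans chr7:99374249-99394816, CNN2 chr19:1026581-1039068, MYH10 chr17:8474205-8630761 and LIMA1 chr12:50175788-50283546.

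The comparison asked whether transcripts of the actin machinery and of its SRF/MRTF control differed after 2 h with VS-4718. None of the 48 tested genes passed limma with Benjamini-Hochberg adjustment over all 9229 tested rows (0 of 48, against 12 rows or 0.13% of all tested rows, 0.0433% higher and 0.0867% lower). At an unadjusted limma p under 0.05 there were 3, CNN2 and ARPC1B with higher means and MYH10 with a lower one; that is 6.25%, against 9.76% of all tested rows (3.02% higher and 6.74% lower). In 6 genes the 2 groups of libraries were separate (12.5%, against 16.4% of all tested rows, 5.15% higher and 11.2% lower): CNN2, ARPC1B, PFN1 and GSN lay higher, and MYH10 and LIMA1 lower. By direction, 8.33% of the set lay higher without overlap and 4.17% lower. With the libraries centred on their medians, 9 genes (18.8%) did not overlap, 7 higher and 2 lower, against 15.7% of all tested rows; ARPC3, CFL1 and TMSB10 were added. In that scaling CNN2, ARPC1B, CFL1 and PFN1 had an unadjusted p under 0.05 (8.33%, against 9.42% of all tested rows), and MYH10 no longer did. The count of 3 became 5 without vehicle replicate 2 and 1 without VS-4718 replicate 1. No gene of the set passed in any of the alternatives run. Over all rows the count of 12 dropped to 7 when vehicle replicate 2 was left out, to 1 for VS-4718 replicate 1, and to 0 for each of the other libraries.

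The measured differences were small and their intervals narrow. For 46 of the 48 genes the 95% interval of the log2 fold change, not adjusted for the number of genes, lay within a 1.5-fold change in either direction, against 70.3% of all tested rows. The exceptions were MKL1 (-0.65 to 0.30) and ACTA2 (-0.32 to 0.98), which were also the lowest of the tested genes by mean level. The rows of these genes had a median level of 6.82 log2 units, against 3.99 over all tested rows. The SE is smaller for rows with high values (a median of 0.08 against 0.12). With the transcript set behind the rows unknown, this difference in level is between rows and may not measure expression in the cells. Means were higher with VS-4718 for 26 genes and lower for 22 (54.2% higher, against 41.8% of all tested rows), with a median log2 fold change of 0.02 against -0.03 over all tested rows. When the libraries were centred on their medians, 35 were higher and 13 lower, with a median of 0.05.

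**Figure D1:**
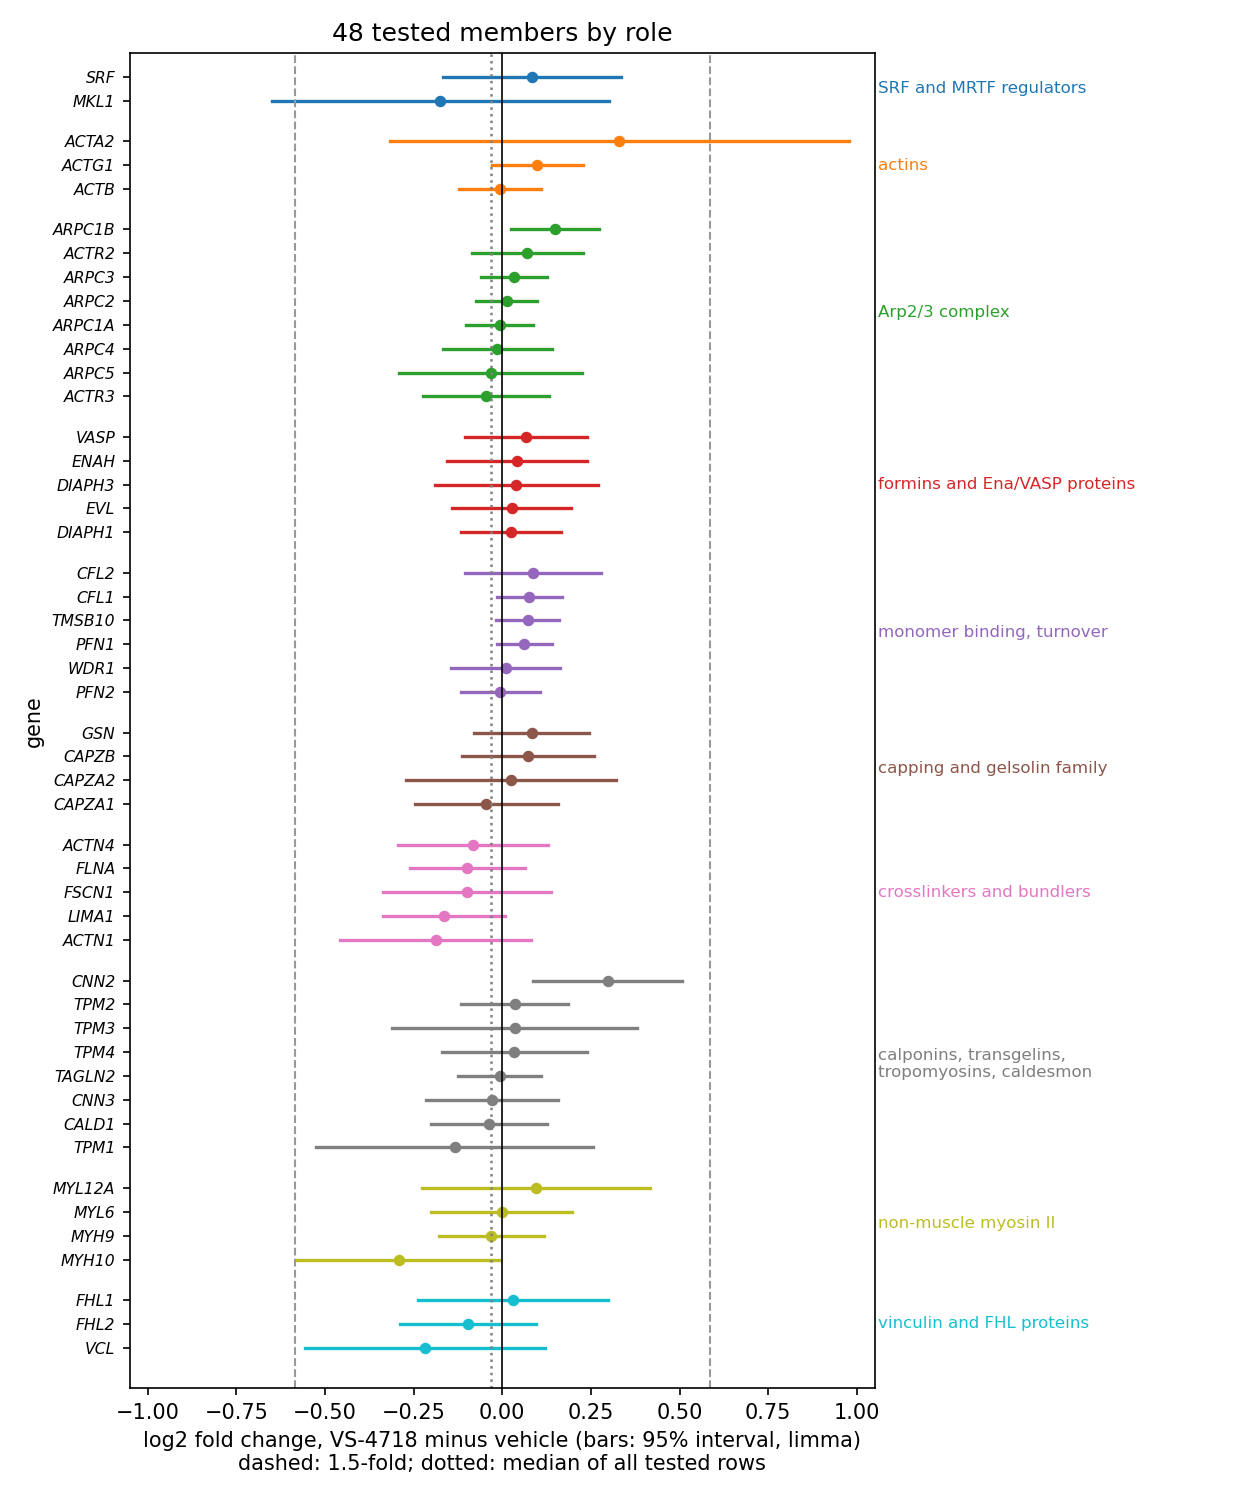
Log2 fold change (VS-4718 minus vehicle, x axis) of the 48 tested genes by role (y axis), with limma's 95% interval; dashed lines mark 1.5-fold and the dotted line the median of all tested rows. The intervals of MKL1 and ACTA2 cross a dashed line, and those of the other 46 genes lie between the dashed lines.

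SRF, the DNA-binding factor of the loop, had values of 6.02, 5.99 and 5.88 in vehicle and 6.13, 6.18 and 5.82 with VS-4718. VS-4718 replicate 3 was the lowest of the 6 libraries and the other treated libraries the highest, so that the groups overlapped. The log2 fold change was 0.08 (SE 0.11, limma adjusted p = 0.82), with an interval from -0.17 to 0.33; it became 0.20 when VS-4718 replicate 3 was left out, and 0.02 when replicate 2 of that group was. MKL1, which encodes the cofactor MRTF-A (gene symbol now MRTFA), had 2.87, 3.60 and 3.52 in vehicle and 3.08, 3.22 and 3.16 with VS-4718. Vehicle replicate 1 stood below the other 5 libraries, and the treated values lay inside the vehicle range. Its log2 fold change was -0.18 (SE 0.20, adjusted p = 0.80), and over the alternatives it ran from -0.41 to -0.04, the former without vehicle replicate 1. MKL2, which encodes MRTF-B (now MRTFB), was too low to be tested, at -0.75 ± 0.25 (SD, n = 3) in vehicle and -0.98 ± 0.26 with VS-4718. On this scale per length the SRF row stood above the MKL1 row and the MKL1 row above that of MKL2 in every library.

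The cytoplasmic actins were among the most abundant rows of the set. ACTB, encoding beta-actin, had 9.82, 9.74 and 9.74 in vehicle and 9.77, 9.82 and 9.67 with VS-4718. The groups overlapped with a log2 fold change of -0.007 (SE 0.05, adjusted p = 0.97) and an interval from -0.12 to 0.11, and the sign turned with median scaling (0.03). ACTG1, encoding gamma-actin, had 11.11, 11.08 and 11.05 in vehicle and 11.20, 11.27 and 11.06 with VS-4718. Treated replicates 1 and 2 lay above all vehicle values and treated replicate 3 among them. Its log2 fold change was 0.10 (SE 0.05, adjusted p = 0.61; interval -0.03 to 0.23). ACTA2, the smooth muscle actin and a classical MRTF target, was low in both groups, with 1.46, 2.31 and 1.497 in vehicle and 2.36, 2.09 and 1.80 with VS-4718. Vehicle replicate 2 lay within the treated range, and the log2 fold change of 0.33 (SE 0.27, adjusted p = 0.72) came with the widest interval of the set. It was 0.61 without vehicle replicate 2 and 0.18 without vehicle replicate 1. Of 6 smooth muscle markers 3 had a row and none was high enough to test; their linear values summed to 1.04 to 1.23 TPM-like units in vehicle and 1.35 to 2.33 with VS-4718, and their part in the ACTA2 values was not tested. Actin genes are near-identical to each other and to pseudogenes, and reads may be split among their rows.

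**Figure D2:**
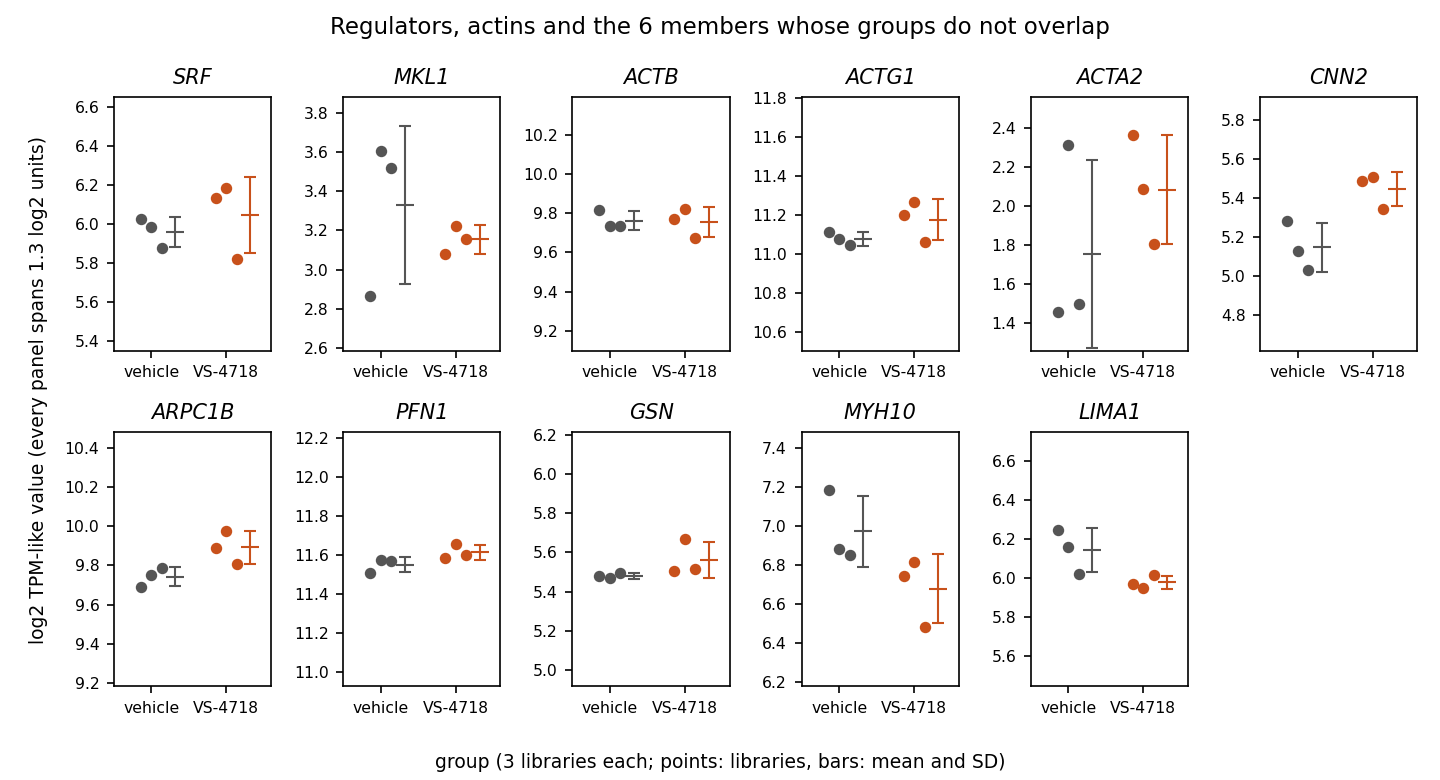
Log2 TPM-like values (y axis, every panel spanning 1.3 log2 units) in the 3 vehicle and 3 VS-4718 libraries (x axis) for SRF, MKL1, the 3 actins and the 6 genes whose groups do not overlap; points are libraries and bars the mean and SD. SRF, MKL1 and the actins overlap between groups, while CNN2 is separated from 5.03 to 5.28 in vehicle to 5.34 to 5.50 with VS-4718.

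The Arp2/3 complex, which nucleates branched filaments, was measured through 8 subunit genes, 4 with higher and 4 with lower means, and a median log2 fold change of 0.002; with median scaling 7 were higher and 1 lower. ARPC1B, a subunit isoform that supports branching activity, had 9.69, 9.75 and 9.79 in vehicle and 9.89, 9.98 and 9.81 with VS-4718. The lowest treated value exceeded the highest vehicle value by less than the SD within either group. Its log2 fold change was 0.15 (SE 0.05, unadjusted p = 0.024, adjusted p = 0.44). Its isoform partner ARPC1A stood at 8.16 ± 0.03 (SD, n = 3) and 8.15 ± 0.02. For ACTR2, the Arp2 subunit, the log2 fold change was 0.07 (SE 0.07), and for ARPC3 it was 0.03 (SE 0.04). The other 5 subunits, ACTR3, ARPC1A, ARPC2, ARPC4 and ARPC5, ran from -0.05 to 0.01.

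Formins and Ena/VASP proteins elongate unbranched filaments. All 5 tested genes, DIAPH1, DIAPH3, ENAH, VASP and EVL, had slightly higher means, with log2 fold changes from 0.02 to 0.07. Without VS-4718 replicate 3 or vehicle replicate 3 it was 4 of the 5. VASP, an elongation factor at adhesions and leading edges, stood at 4.82 ± 0.07 (SD, n = 3) in the vehicle group and 4.89 ± 0.04 in the treated one (adjusted p = 0.79). DIAPH3, a formin, stood at 5.12 ± 0.14 and 5.16 ± 0.11, and ENAH at 4.71 ± 0.08 and 4.75 ± 0.09.

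The genes for monomer binding and filament turnover held the most abundant tested row of the set, PFN1. PFN1, encoding profilin, which loads monomers onto growing filaments, had 11.51, 11.58 and 11.57 in vehicle and 11.58, 11.65 and 11.60 with VS-4718. The groups did not overlap, by a narrow margin, and the log2 fold change was 0.06 (SE 0.03, adjusted p = 0.59). CFL1, the severing protein cofilin, had 10.08, 10.12 and 10.17 in vehicle and 10.16, 10.24 and 10.20 with VS-4718, with a log2 fold change of 0.08 (SE 0.04, adjusted p = 0.58). TMSB10, a thymosin that holds monomers in reserve, had 10.56, 10.66 and 10.63 in vehicle and 10.71, 10.70 and 10.65 with VS-4718, with a log2 fold change of 0.07 (SE 0.04, adjusted p = 0.59). In both of these genes 1 treated library fell within the vehicle range. CFL2 and WDR1, which speeds cofilin-driven disassembly, had log2 fold changes of 0.09 and 0.01, and PFN2 one of -0.006. Thus 5 of the 6 had higher means, with intervals that all included 0; it was all 6 without vehicle replicate 1 and 4 without vehicle replicate 2. With median scaling all 6 were higher, and the log2 fold changes of CFL1 (0.11, SE 0.04) and PFN1 (0.10, SE 0.04) had an unadjusted p under 0.05, with a limma adjusted p of 0.51 for each.

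Capping and gelsolin family genes gave 3 higher and 1 lower mean of 4 tested. This turned to 1 higher and 3 lower without VS-4718 replicate 3, to 2 of each without vehicle replicate 1, and to 4 higher without vehicle replicate 3. GSN, encoding gelsolin, which severs and caps filaments under calcium control, had 5.48, 5.47 and 5.50 in vehicle and 5.50, 5.67 and 5.52 with VS-4718. The groups did not overlap, with vehicle replicate 3 just below VS-4718 replicate 1. The log2 fold change of 0.08 (SE 0.07, adjusted p = 0.72) rested largely on VS-4718 replicate 2 and was 0.03 without it. CAPZB, the beta subunit of capping protein, stood at 6.78 ± 0.07 and 6.85 ± 0.13 (SD, n = 3). CAPZA1 stood at 8.50 ± 0.14 and 8.45 ± 0.10, and CAPZA2 had a log2 fold change of 0.03 (SE 0.12).

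Crosslinkers and bundlers were the 1 role in which every tested gene had a lower mean, with log2 fold changes from -0.19 to -0.08 over 5 genes. Over all 9229 tested rows 5370 had a lower mean. The role's median deviation from each gene's mean was 0.19, -0.12 and 0.04 in the vehicle libraries. With VS-4718 it was -0.05, -0.09 and -0.09, so the groups overlapped at this level. LIMA1, which encodes EPLIN, a protein that stabilises bundles, had 6.25, 6.16 and 6.02 in vehicle and 5.97, 5.95 and 6.01 with VS-4718. The groups did not overlap, with vehicle replicate 3 next to the treated values, and the log2 fold change was -0.16 (SE 0.07, adjusted p = 0.53). ACTN1, an alpha-actinin that ties filaments together at adhesions, had 6.27, 5.97 and 6.29 in vehicle and 6.15, 5.92 and 5.90 with VS-4718 (log2 fold change -0.19, SE 0.11, adjusted p = 0.64). FLNA, encoding filamin A, which joins filaments into networks, had 7.68, 7.71 and 7.53 in vehicle and 7.51, 7.63 and 7.48 with VS-4718 (log2 fold change -0.10, SE 0.07, adjusted p = 0.67). In ACTN1 vehicle replicate 2 fell within the treated range, and in FLNA vehicle replicate 3 did. ACTN4 and FSCN1, the bundling protein fascin, had log2 fold changes of -0.08 and -0.10. Without vehicle replicate 1, 4 of the 5 were lower; in every other alternative run it was all 5. None passed the test.

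Among calponins, transgelins, tropomyosins and caldesmon, which lie along filaments and include many MRTF targets, 4 of 8 tested genes had higher means. It was 2 without vehicle replicate 2, and 6 without vehicle replicate 3 or with median scaling. CNN2, a calponin that restrains myosin activity and carries the CArG box printed above, had the smallest p of the whole set. Its values were 5.28, 5.13 and 5.03 in vehicle and 5.49, 5.50 and 5.34 with VS-4718. All 3 treated libraries lay above all 3 vehicle libraries. The log2 fold change was 0.30 (SE 0.09, unadjusted p = 0.013), or 22.9% higher in geometric mean, with an interval from 0.09 to 0.51; over all rows the adjusted p was 0.38, and from 0.32 to 0.63 over the alternatives. CNN3, its relative, stood at 6.25 ± 0.13 and 6.22 ± 0.04 (SD, n = 3). TPM1, a tropomyosin, stood at 4.28 ± 0.10 and 4.15 ± 0.32, with VS-4718 replicate 1 lowest at 3.82 and replicate 2 highest at 4.46. TPM2, TPM3 and TPM4 had log2 fold changes of 0.03 each, CALD1 -0.04 and TAGLN2 -0.007. A further row, TPM3-RS7, bears the name of a TPM3-related sequence and stood at 7.88 ± 0.07 and 7.85 ± 0.07, next to TPM3 at 7.52 ± 0.31 and 7.55 ± 0.07, so reads of TPM3 may be split.

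Non-muscle myosin II supplies contractile force. Of 4 tested genes 1 had a higher mean, and 3 did with median scaling or without vehicle replicate 3. It was 0 without VS-4718 replicate 2, and 2 without vehicle replicate 2, VS-4718 replicate 1 or VS-4718 replicate 3. MYH10, the heavy chain of myosin IIB, had 7.18, 6.88 and 6.85 in vehicle and 6.74, 6.81 and 6.48 with VS-4718. The groups did not overlap, although vehicle replicates 2 and 3 lay nearer to treated replicates 1 and 2 than to vehicle replicate 1. Its log2 fold change was -0.29 (SE 0.12, unadjusted p = 0.046, adjusted p = 0.50), or -18.4% in geometric mean, and it ran from -0.36 to -0.19 over the alternatives. MYH9, the heavy chain of myosin IIA and the more abundant row, stood at 8.33 ± 0.10 and 8.30 ± 0.07 (SD, n = 3). The light chain MYL6 had a log2 fold change of -0.002 and MYL12A one of 0.10 (SE 0.14), which was -0.06 without VS-4718 replicate 2. MYL12A and MYL12B are near-identical genes, and their rows stood at 7.93 ± 0.12 and 0.04 ± 0.38 in vehicle, so the level of either is uncertain.

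Vinculin and the FHL proteins link filaments to adhesions or shuttle between them and the nucleus. VCL, which couples actin to integrin complexes and is an SRF target, had 3.81, 4.02 and 4.25 in vehicle and 4.001, 3.73 and 3.69 with VS-4718. The groups overlapped, and the log2 fold change was -0.22 (SE 0.14, adjusted p = 0.66). FHL2, a LIM-domain cofactor, stood at 6.68 ± 0.15 and 6.58 ± 0.02, and FHL1 at 4.63 ± 0.07 and 4.66 ± 0.20.

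The genes with a CArG box among their promoter windows went both ways. All 8 were tested, 5 with higher and 3 with lower means, from -0.19 (ACTN1) to 0.30 (CNN2), with a median of 0.03. The 36 tested genes with windows that held no exact box ran from -0.29 to 0.33 with a median of 0.02, 20 higher and 16 lower. This split used human promoters and exact matches in short windows, and says nothing of boxes elsewhere.

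Besides MKL2, the genes below the filter were FLNC, TAGLN, MYL9 and MYL12B. TAGLN, the smooth muscle transgelin, had -2.30, -1.76 and -3.21 in vehicle and -3.26, 0.06 and -1.15 with VS-4718, a spread too wide to compare. MYL9, a contractile light chain and MRTF target, stood at -0.69 ± 0.10 and -0.35 ± 0.50 (SD, n = 3), with VS-4718 replicate 1 at 0.21 apart from the others. FLNC, the muscle filamin, stood at 0.02 ± 0.42 and -0.27 ± 0.27. The rows of these 3 muscle-type genes thus stood far below those of ACTB, ACTG1, PFN1 and CFL1. The latter ran from 9.67 (ACTB) to 11.65 (PFN1) log2 units over the libraries.

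**Figure D3:**
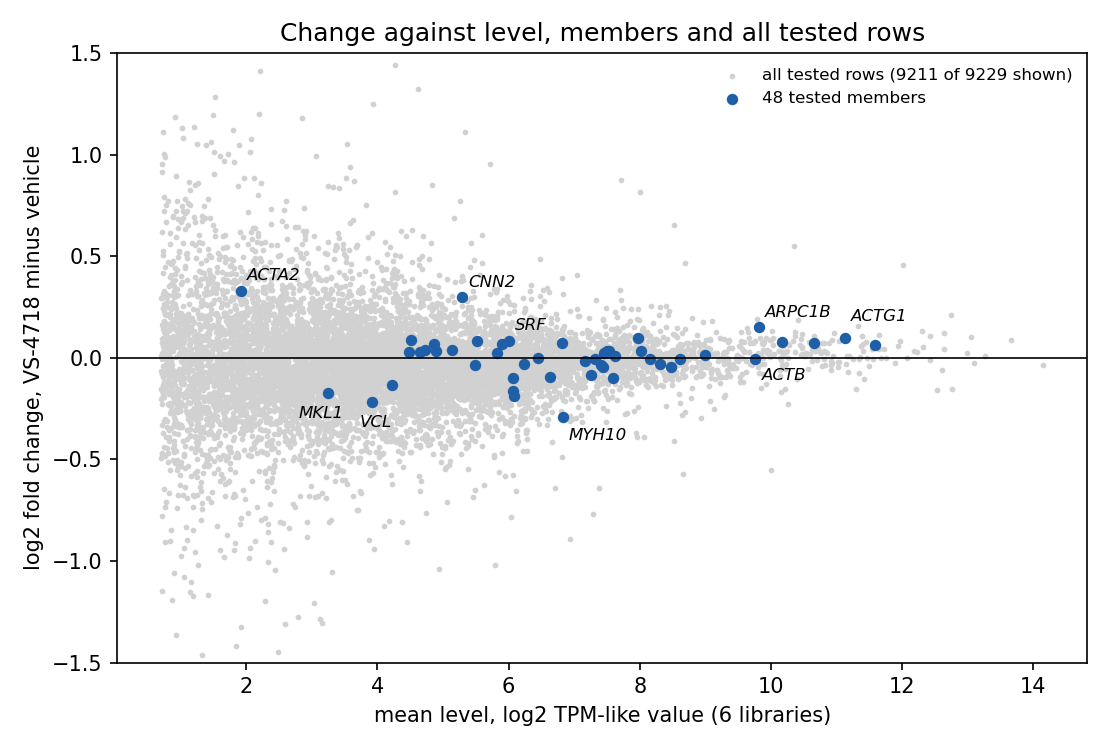
Mean level over the 6 libraries (x axis, log2 TPM-like units) against log2 fold change (y axis, VS-4718 minus vehicle) for all tested rows (grey, 9211 of 9229 within the axis) and the 48 tested genes (blue). The blue points lie within the grey cloud at their level, from 0.33 (ACTA2) to -0.29 (MYH10).

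Within-library differences between related genes, which no scaling factor of a library can move, were compared for 13 pairs chosen by family after the values had been seen. With 3 libraries against 3 the exact two-sided permutation test cannot go below p = 0.1, and the smallest value adjusted over the 13 pairs was 0.33. ACTG1 minus ACTB was 1.297, 1.34 and 1.31 log2 units in vehicle and 1.43, 1.45 and 1.39 with VS-4718 (exact permutation p = 0.1). This is a shift of 0.11 towards the ACTG1 row, with tighter replicates than either gene alone. ACTG-PS1, a row named for a gamma-actin pseudogene and close to ACTG1 in level, had a log2 fold change of 0.03 (SE 0.04). Reads may be split between these rows, and the pair was not tested with them joined. ARPC1B minus ARPC1A went from 1.58 ± 0.02 (SD, n = 3) to 1.74 ± 0.07, CNN2 minus CNN3 from -1.10 ± 0.15 to -0.77 ± 0.06, and ACTR2 minus ACTR3 from -1.60 ± 0.06 to -1.48 ± 0.09. In these 4 of 13 pairs the groups did not overlap; a share over other pairs of rows was not computed. MYH10 minus MYH9 went from -1.36 ± 0.24 to -1.62 ± 0.21 with overlap, and CFL2 minus CFL1 stood at -5.66 ± 0.03 and -5.65 ± 0.10.

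**Figure D4:**
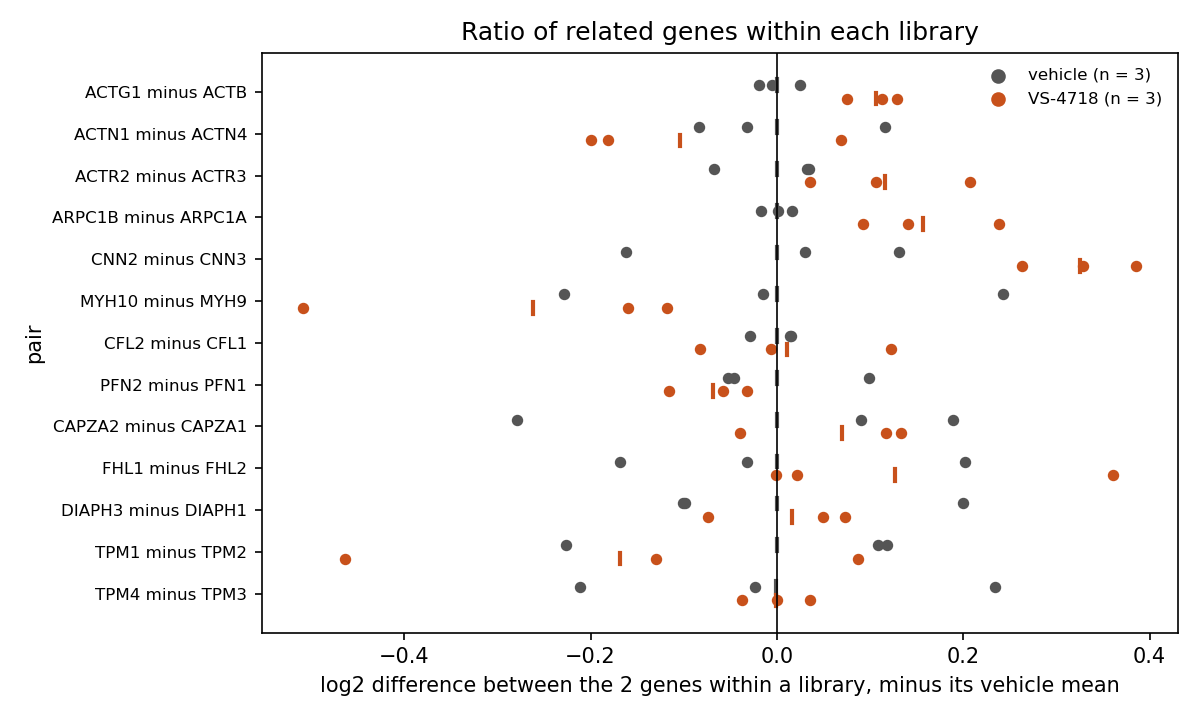
Log2 difference between the 2 genes of a pair within each library, minus its vehicle mean (x axis), for 13 pairs (y axis), with points for the 3 vehicle and 3 VS-4718 libraries and a tick at each group's mean. The groups are separate for ACTG1 and ACTB, ACTR2 and ACTR3, ARPC1B and ARPC1A, and CNN2 and CNN3, and they overlap for the other 9 pairs.

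Genes that act beside this machinery did not pass either. Of 15 tested WASP, WAVE and Arp2/3 regulators 0 passed and 0 had an unadjusted limma p under 0.05, against 9.76% of all tested rows. Lower means were found for 11 of the 15, against 5370 of all 9229 tested rows. CTTN, encoding cortactin, stood at 9.26 ± 0.06 and 9.17 ± 0.05.

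Of 11 tested other SRF/MRTF targets 0 passed and 0 had an unadjusted limma p under 0.05, against 9.76% of all tested rows. Higher means were found for 6 of the 11, against 41.8% of all tested rows. CSRP2, a LIM protein, stood at 6.57 ± 0.02 and 6.67 ± 0.07. SRF also drives early genes with TCF partners in place of MRTF. A list of these early genes and of the partners themselves (ELK1, ELK3 and ELK4) had 9 tested genes. Of these 0 passed and 2, both early genes, had an unadjusted p under 0.05, against 9.76% of all tested rows. EGR1 had 1.78, 1.79 and 1.84 in vehicle and 2.69, 2.67 and 2.63 with VS-4718 (log2 fold change 0.86, limma adjusted p = 0.072). EGR2 had a log2 fold change of -0.94 (limma adjusted p = 0.51). Its row was low, at 1.52 ± 0.30 and 0.58 ± 0.76 (SD, n = 3), and the groups overlapped, with VS-4718 replicate 3 (1.45) inside the vehicle range. Of 26 other tested monomer and filament regulators 0 passed, and 3 had an unadjusted p under 0.05, which is near the 9.76% of all tested rows. MYH14, the myosin IIC heavy chain, stood at 3.30 ± 0.19 and 3.83 ± 0.26 (adjusted p = 0.39). EZR, the membrane linker ezrin, stood at 5.11 ± 0.24 and 4.72 ± 0.06, and DAAM1, a formin, at 2.94 ± 0.13 and 2.60 ± 0.03, each with an adjusted p of 0.40.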

How the data were processed

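Per the labels' protocols, total RNA was taken with a phenol reagent and column kit, and a company made and sequenced the 6 libraries. The authors deposited log2 values per gene symbol. The submitters' processing notes name kallisto and GRCh38; the sources used here do not give its version, index, annotation, strandedness or filters. That the values are TPM-like was inferred from their linear sums. Values were used as deposited. Rows with a mean above the lowest 25% (over 0.70) were tested: 9229 rows, with limma 3.58.1 in R 4.3.3 (limma-trend, group as the only term, two-sided, Benjamini-Hochberg, threshold 0.05). Fold changes are the treated mean minus the vehicle mean, and each SE is the moderated one. The script was tested on simulated data. One further list of regulators is not reported here. Depth is unknown, so no counting interval is given.

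The genes, lists and tests were chosen with earlier results of these data known. Genes named with values in each library were the tested regulators, the actins, the 12 tested genes with the smallest p, and EGR1 of the other lists. MKL2 was given with mean and SD, and up to 3 genes of each role and list were named with mean and SD. GSN, TAGLN and further genes of a role were added after their values were seen, as were TPM3-RS7, the gene pairs and the 1.5-fold bound. Promoter sequences are from RefSeq (GRCh38.p14) and annotation from GENCODE 29 (GRCh38). Pairs were tested with scipy 1.17.1. The alternatives left out each library in turn, added a replicate block, a pseudocount of 1 or weights for sample quality, centred libraries on their medians, dropped the filter or the mean-variance trend, raised the filter to 50%, or tested against 1.2-fold.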

Additional observations from a re-analysis of the deposited data

How the results depend on the processing

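The 0 genes of the set past the threshold stayed 0 in each of the 14 alternatives run, and so did the counts of the 4 other lists. The genes at an unadjusted p under 0.05 (3) were 1 without the mean-variance trend and 1 to 5 with a library left out. Those without overlap (6) were 9 with median scaling (15.7% of all rows) and 10 to 15 with a library left out, where fewer libraries separate more often (25% to 30.5% of all rows). The 12 rows past the threshold overall with limma were 0 with the replicate block (793 at an unadjusted p under 0.05), 0 without trend (910), 0 against 1.2-fold (146), and 0 to 7 with a library left out; beyond the fewer degrees of freedom of the block and the left-out libraries, and the larger change asked for by the 1.2-fold test, the cause was not tested. The median over actin-binding proteins was 0.0464 with median scaling (0.01 as reported), which adds 1 constant per library. That over the 2 regulators ran from -0.15 to 0.03 with a library left out. Intervals within 1.5-fold numbered 43 to 46 over these alternatives, a bound that was chosen after seeing the data. Across rows, the residuals of libraries 1, 2 and 3 of the 2 groups correlated at 0.135, 0.055 and 0.032 with their own number. For each vehicle library this was its highest value, while the third treated library was closer to the second vehicle library (0.049). These values do not settle whether the numbers pair the libraries. The main fit used group as its only term, and the replicate block left 3 genes at an unadjusted p under 0.05, as reported. Of 376 gene-by-setting values of named genes, 361 kept their sign, and 15, in 10 genes, did not. With median scaling these were ACTB (0.0264) and MYH9 (0.0033). With a library left out, ACTB ran from -0.0412 to 0.0343, ENAH from -0.0121 to 0.0811, DIAPH3 from -0.018 to 0.116, CAPZB from -0.003 to 0.117, CAPZA1 from -0.126 to 0.0085, TPM1 from -0.289 to 0.0324, TPM2 from -0.0038 to 0.092, MYL12A from -0.0582 to 0.193, MYH9 from -0.0678 to 0.023 and FHL1 from -0.0828 to 0.0889; the cause was not tested.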

Other observations

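Rows of further actin-family genes, picked by name after the table had been seen, also lay close together in the 2 groups. The row of ACTA1, the skeletal muscle actin, had a vehicle level of 5.04 ± 0.29 (SD, n = 3) on the log2 scale and a treated level of 5.05 ± 0.07. That of ACTC1, the cardiac actin, stood at 3.57 ± 0.14 and 3.58 ± 0.06, and both lay above the ACTA2 row. Actin genes are near-identical, so reads of other actins may be counted in these rows, which was not tested. ACTG-PS1, whose name is that of a gamma-actin pseudogene, stood at 10.72 ± 0.05 and 10.75 ± 0.04, close to ACTG1 itself. ACTG2 and ACTBL2 were too low to be tested. Of the isoform partners of listed subunits, ARPC5L stood at 6.31 ± 0.06 and 6.22 ± 0.05, MYL6B at 4.84 ± 0.12 and 4.94 ± 0.09, and ACTR3B at 1.597 ± 0.551 and 1.54 ± 0.26. None of these tested rows passed limma over all rows (adjusted p from 0.64 to 0.99), and none had an unadjusted p under 0.05.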
